A study of Mus musculus with 17 samples.

Results

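Ephrins and their Eph receptors were examined in mouse ovarian follicles exposed to an inhibitor of the EGF receptor kinase. The genes were chosen by symbol: the receptors Epha2, Epha4, Ephb2 and Ephb4, and the ligands Efna1, Efna5, Efnb1 and Efnb2. All 8 were among the 25198 gene symbols of the count table, and 7 of them passed the filter on low counts that left 9603 genes for testing; Ephb2 did not. The follicles came from CD1 mice 16 days old and had grown for 8 days in eIVFG, an encapsulated in vitro culture. There were 17 libraries, made by Smart-Seq2 from total RNA of 3 antral follicles per sample. The 6 Tyrphostin libraries had received 10 µM Tyrphostin-AG1478 in DMSO together with hCG for 4 h; AG1478 blocks the EGF receptor kinase, and hCG, a gonadotropin, stands in for the ovulatory hormone surge. The 11 Control libraries carry the same treatment text as the others, so the labels do not settle whether Control follicles received hCG or DMSO. Batch 1 held 6 Control and 3 Tyrphostin libraries, and batch 2 held 5 Control and 3 Tyrphostin libraries.

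Eph receptors are receptor tyrosine kinases whose ligands, the ephrins, are anchored in the membrane of a neighbouring cell. Ephrins of class A are held by a lipid anchor and those of class B span the membrane, so that contact sends a signal into both cells: forward through the receptor and reverse through the ephrin. The outcome is usually repulsion, adhesion or sorting of cells, and in vessels ephrin-B2 and EphB4 separate arterial from venous endothelium. In the ovary the system has been studied in the adhesion of granulosa cells and in the corpus luteum.

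Library totals ranged from 1820545 counts (Control 6) to 8291024 counts (Control 8), and 3 counts corresponded to 0.334 to 1.63 CPM, the count scaled to a common library size with TMM factors. Group means are given ± SD over libraries and log2 fold changes, Tyrphostin against Control, ± their standard error. The labels do not say whether libraries came from separate animals or cultures, so the p-values measure the spread between these libraries. Marker genes of granulosa cells summed to 38800 to 52600 CPM in Control and 34900 to 51400 CPM in Tyrphostin libraries, nearly all of it from Inha, an inhibin subunit. All 8 granulosa markers were detected in at least 1 library, although Amh was at 0 in 12 libraries and Foxl2 in 3. Of the 6 granulosa markers tested, 4 were called higher in Tyrphostin libraries (edgeR), against 4.35% of all genes. From Control to Tyrphostin, mean CPM went from 158 to 774 for Cyp19a1, 54.1 to 325 for Hsd17b1 and 44.6 to 201 for Nr5a2. It went from 8.28 to 14.8 for Fshr, 7.53 to 10.7 for Amhr2 and 44400 to 42800 for Inha. The other marker lists were far lower, and no list's share of counts passed the test between the groups (exact two-sided permutation test over 4704 arrangements within batches; adjusted p from 0.304 to 0.689 over the 6 lists). Tyrphostin 5 held the most theca and stroma RNA (3070 CPM, against 272 to 1080 CPM in the other Tyrphostin libraries) and the most immune RNA (854 CPM). In bulk RNA, fewer cells of a type and less RNA per cell cannot be told apart.

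None of the 7 tested genes passed the test for a Tyrphostin effect over all 17 libraries. In the quasi-likelihood test of edgeR with batch as a term, 0 of 7 passed the threshold of 0.05 on the adjusted p, against 10.6% of all genes tested. At an unadjusted p under 0.05 there was 1 of 7, Efnb2, against 23.7% of all genes. DESeq2 and limma-voom also gave 0 of 7 after adjustment and 1 of 7, again Efnb2, before it; limma-voom with sample weights gave 0 in both cases. The log2 fold changes of the 7 ranged from -0.65 to 0.58 with a median of 0.11, beside a median of 0 over all genes; scaling by total counts moved that median to 0.15 and turned the sign of none of the 7. For 0 of the 7 did the Tyrphostin and Control libraries separate without overlap, which 1.51% of all genes did.

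**Figure D1:**
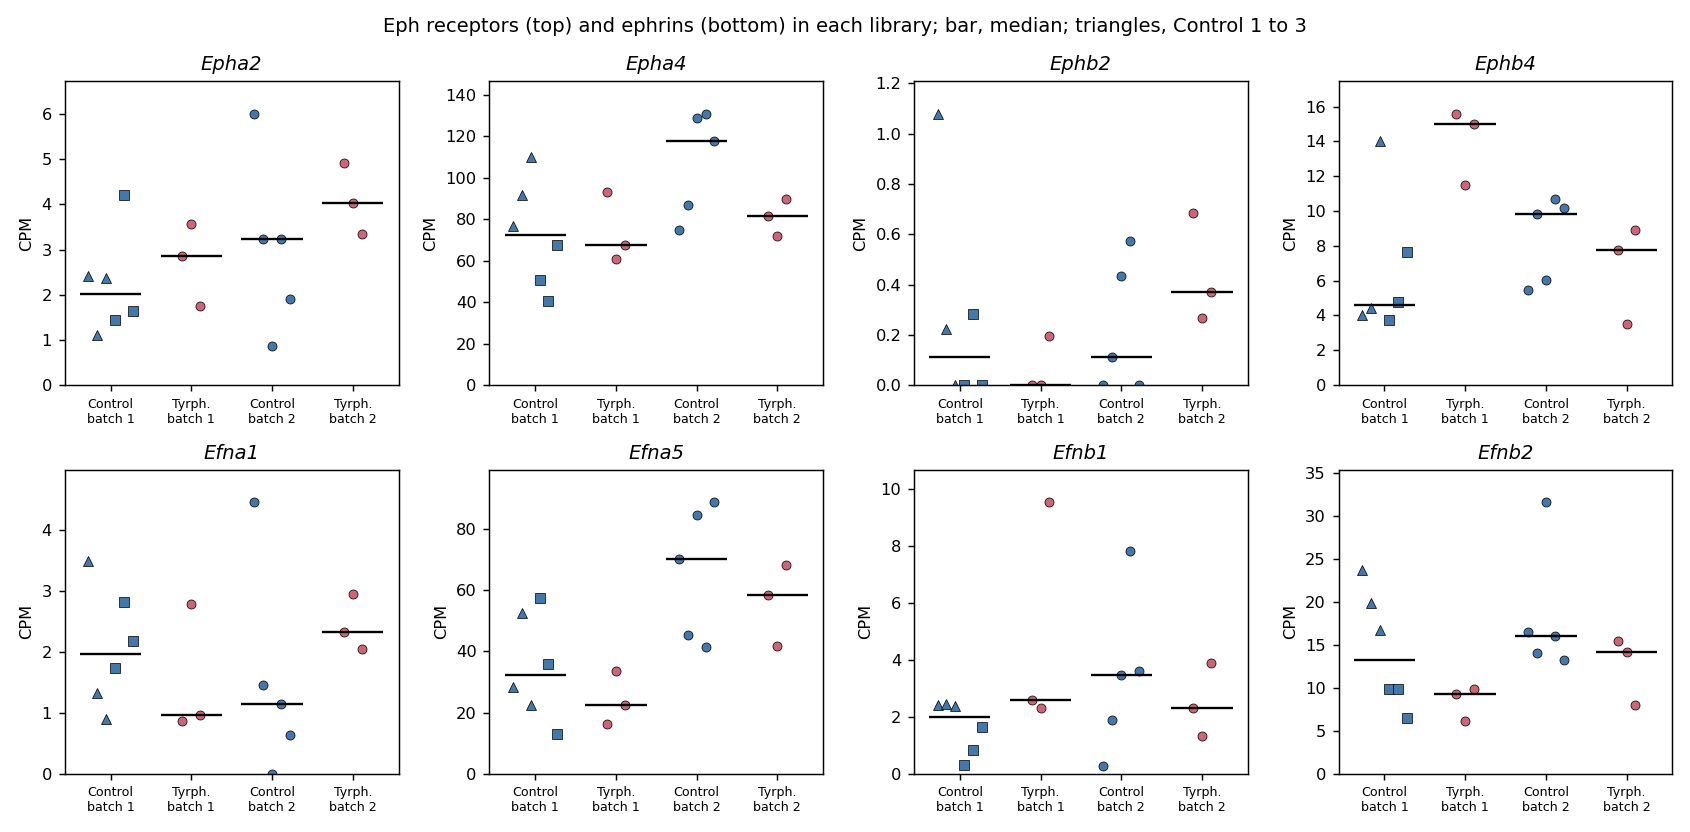
CPM (vertical axis, from 0) of each Eph receptor and ephrin in the 17 libraries, by group and batch; each point is 1 library, bars are medians, and in batch 1 triangles mark Control 1 to 3 and squares Control 4 to 6. The groups overlap for every gene, with Efnb2 low and Ephb4 high in the Tyrphostin libraries of batch 1.

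Epha4 and Efna5 were the most abundant of the 8 genes. Levels were scaled per kilobase over the union of annotated exons, which was 4032 bases for Efna5 and 12608 for Ephb2. This allows only a rough comparison of genes, since a transcript may use only part of that union. On this scale Efna5 averaged 12.2 CPM per kb ± 6.08 (SD, n = 11) in Control libraries. Epha4 averaged 11 CPM per kb ± 3.79 (SD, n = 11), and the levels did not differ beyond their spread. Of the others, Efnb2 at 2.36 ± 1.03 and Ephb4 at 1.58 ± 0.727 CPM per kb (SD, n = 11) came next and also overlapped. Lower still were Efna1 at 0.999 ± 0.717, Efnb1 at 0.713 ± 0.609 and Epha2 at 0.554 ± 0.325 CPM per kb (SD, n = 11), whose order was within their spread. Ephb2, at 0.0194 CPM per kb ± 0.0269 (SD, n = 11), was at the edge of detection. Across the whole family of 22 genes, Epha7, which is not among the 8, was the highest in Control libraries, at 17.9 CPM per kb ± 7.44 (SD, n = 11).

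**Figure D2:**
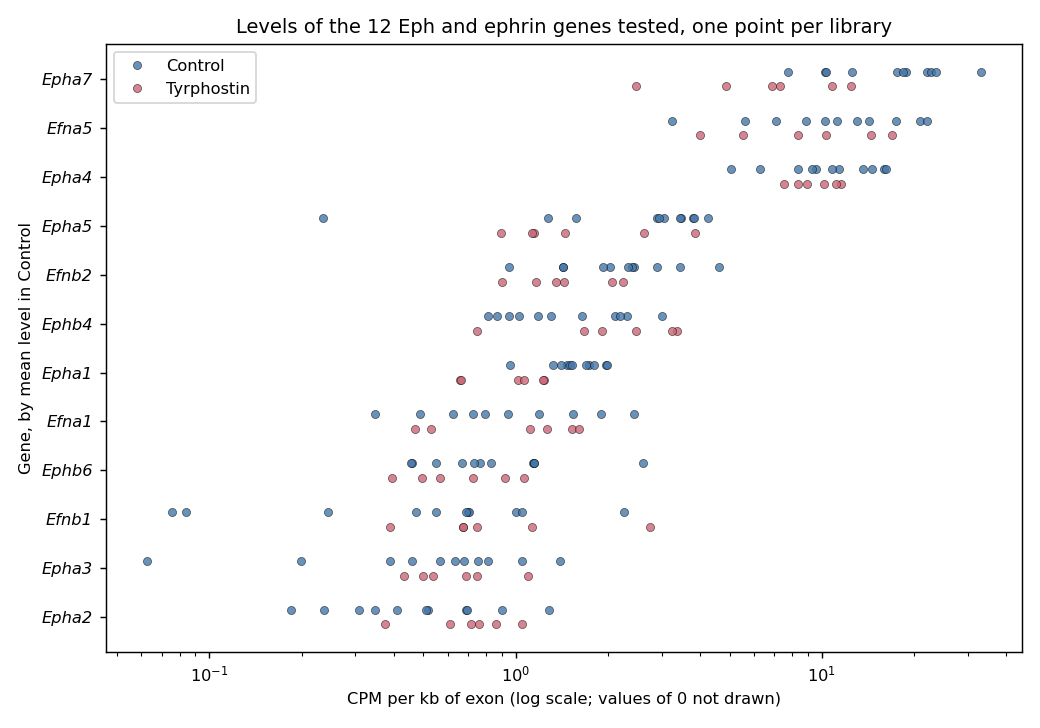
CPM per kb of exon (horizontal axis, log scale) of the 12 Eph and ephrin genes that were tested, ordered by their mean in Control; each point is 1 library, Control above and Tyrphostin below on each line. Epha7, Efna5 and Epha4 lead, and the point at 0 for Efna1 in Control 9 is not drawn.

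Among the receptors, Epha4, which binds ephrins of both classes, lies on chromosome 1 of GRCm38 at 77367185 to 77515088, minus strand. It ranged from 40.7 to 131 CPM in Control (median 87.1) and from 60.7 to 93.4 CPM in Tyrphostin libraries (median 76.9). All Tyrphostin values lay inside the Control range. Its log2 fold change was -0.19 ± 0.2 (edgeR adjusted p = 0.626), with a 95% interval of -0.59 to 0.22, the narrowest of the 7 genes. Within the batches it was 0.02 ± 0.28 in batch 1 and -0.41 ± 0.25 in batch 2.

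Within batch 1 the Epha4 levels of Control 1, 2 and 3 were 76.9, 91.9 and 110 CPM, and those of Control 4, 5 and 6 were 50.8, 40.7 and 67.6 CPM. The Tyrphostin libraries of that batch, at 93.4, 60.7 and 67.6 CPM, lay across both. The first number of the column names puts Control 1 to 3 in 1 set and Control 4 to 6 in another. In batch 2 it puts Control 7 and 8 in a set, Control 9 in its own and Control 10 and 11 in a further one. What a set shares is not stated in the labels. Libraries of a set were counted separately in n, in the SD and in the main fits.

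Epha2, a receptor of A-class ephrins abundant in epithelia, lies on chromosome 4 at 141301240 to 141329384, plus strand. It gave only 2 to 36 counts per library. Control libraries ranged from 0.866 to 6.01 CPM (median 2.38) and Tyrphostin libraries from 1.75 to 4.92 CPM (median 3.45). The Tyrphostin values lay inside the Control range, 5 of 6 above its median. A log2 fold change of 0.35 ± 0.33 (edgeR adjusted p = 0.576) had a 95% interval of -0.33 to 1.03.

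Ephb4, which encodes a receptor of ephrin-B2, lies on chromosome 5 at 137350109 to 137378669, plus strand. Over all libraries it averaged 7.35 ± 3.37 CPM in the 11 Control and 10.4 ± 4.6 CPM in the 6 Tyrphostin libraries. The difference was 0.47 ± 0.31 on the log2 scale (edgeR adjusted p = 0.382; 95% interval -0.17 to 1.1). The sign was not the same in the batches. In batch 1 the 3 Tyrphostin libraries read 15.6, 11.5 and 15 CPM, and the Control libraries 4.03, 4.43, 14, 3.76, 4.77 and 7.63 CPM.

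Of these Control libraries only Control 3, at 14 CPM, reached the Tyrphostin values. The log2 fold change within batch 1 was 1.15 ± 0.36 (edgeR adjusted p = 0.0668), and without Control 3 it was 1.55 (edgeR adjusted p = 0.00611). It also passed the threshold with total-count scaling (edgeR adjusted p = 0.0394), with no filter (edgeR adjusted p = 0.00743) and without Control 1 to 3 (edgeR adjusted p = 0.045). It did not pass with DESeq2, without Control 4 to 6 (0.94, edgeR adjusted p = 0.275) or in the other 8 fits of batch 1 that left out a library, where the adjusted p reached 0.186 (without Tyrphostin 1). In batch 2 all 3 Tyrphostin libraries, at 7.78, 3.48 and 8.92 CPM, lay below the Control median of 9.81 CPM. The log2 fold change there was -0.33 ± 0.37 (edgeR adjusted p = 0.846). The interaction between treatment and batch had an unadjusted p of 0.0136 for Ephb4, and adjusted over all genes it was 0.9997 (edgeR), so the difference between batches did not pass the test. Exons of Zan on the opposite strand overlap 33 of the 4640 exonic bases of Ephb4.

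Ephb2, a B-class receptor, lies on chromosome 4 at 136647539 to 136835988, minus strand. It gave 0 to 5 counts per library, 11 counts in all over Control and 9 over Tyrphostin libraries. No difference was detectable at this depth.

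Among the ligands, Efnb2, which encodes ephrin-B2, had the lowest p of the 8 genes. It lies on chromosome 8 at 8617434 to 8661242, minus strand. Control libraries ranged from 6.54 to 31.6 CPM (median 16) and Tyrphostin libraries from 6.19 to 15.4 CPM (median 9.6). All 6 Tyrphostin libraries lay below the Control median, but only 1 lay below every Control library. The estimate was -0.65 ± 0.26 on the log2 scale (unadjusted p = 0.0194, edgeR adjusted p = 0.118), with a 95% interval of -1.19 to -0.12 before adjustment.

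The value for Efnb2 depended on which Control libraries of batch 1 were used. Control 1, 2 and 3 read 23.7, 19.9 and 16.7 CPM, and Control 4, 5 and 6 read 9.82, 9.83 and 6.54 CPM. The Tyrphostin libraries of batch 1 read 9.3, 6.19 and 9.9 CPM, below the first set and level with the second. Without Control 1 to 3 the log2 fold change within batch 1 was -0.07 (edgeR adjusted p = 0.948), and without Control 4 to 6 it was -1.24 (edgeR adjusted p = 0.039). Over all libraries the corresponding values were -0.33 (edgeR adjusted p = 0.506) and -0.83 (edgeR adjusted p = 0.0416). In batch 2 the Tyrphostin libraries read 15.4, 14.2 and 7.99 CPM and Control 7 to 11 read 16.5, 14, 31.6, 16 and 13.2 CPM, a log2 fold change of -0.51 ± 0.34 (edgeR adjusted p = 0.67).

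The summed level of 9 endothelial markers was also higher in Control 1 to 3 than in Control 4 to 6, mainly through 1 gene. The list summed to 102, 69.8 and 49.7 CPM in Control 1, 2 and 3, and to 19.6, 37.6 and 25.1 CPM in Control 4, 5 and 6. The Tyrphostin libraries of batch 1 were at 29, 46.7 and 21.7 CPM. Most of the sum was Cdh5, which encodes VE-cadherin, at a mean of 54.8 CPM in Control 1 to 3 and 13 CPM in Control 4 to 6. Pecam1, a second endothelial adhesion gene, averaged 3.78 and 0.666 CPM in the same sets and gave at most 24 counts in any library. The list did not move as a whole: Flt1 averaged 2.16 and 2.23 CPM, Eng 2.56 and 2.74 CPM, Tie1 0.974 and 1.49 CPM and Esam 3.71 and 3.62 CPM in the same sets. None of the 9 markers was at 0 in every library, though Emcn was at 0 in 6 and Tek and Tie1 in 4 each. Over both groups the summed list ran from 10.8 to 102 CPM in Control and from 10.4 to 46.7 CPM in Tyrphostin libraries. In batch 2 the library with the most Efnb2, Control 9, had 17.8 CPM of these markers, within the range of 10.8 to 27.7 CPM of its Control group. The part of endothelial RNA in the Efnb2 values was not tested.

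**Figure D3:**
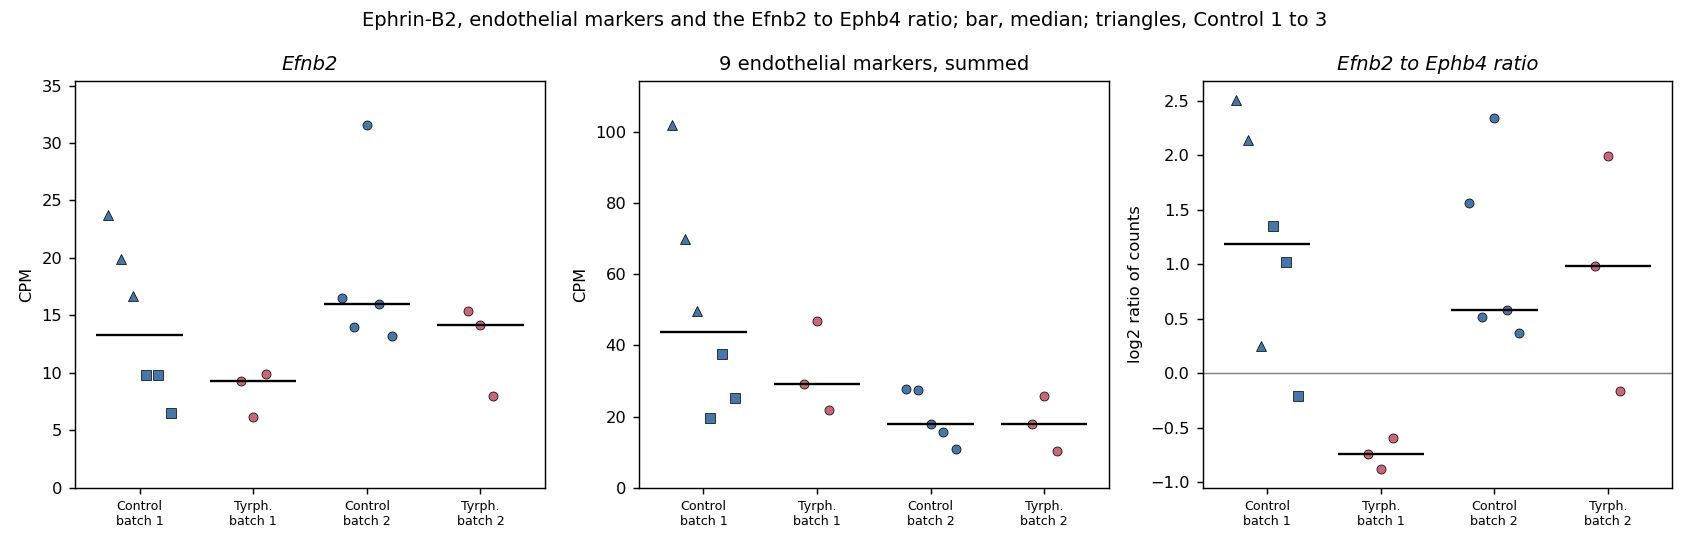
Efnb2 CPM (left), summed CPM of 9 endothelial markers (middle) and the log2 ratio of Efnb2 to Ephb4 counts (right) by group and batch; each point is 1 library, bars are medians, and triangles mark Control 1 to 3. Control 1 to 3 are the highest libraries of batch 1 in the left and middle panels, and the 3 Tyrphostin libraries of batch 1 lie below every Control library of that batch in the right panel.

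Efna5, which encodes the lipid-anchored ephrin-A5, lies on chromosome 17 at 62604184 to 62881317, minus strand. It ranged from 13.1 to 88.7 CPM in Control (median 45.4) and from 16.2 to 68.2 CPM in Tyrphostin libraries (median 37.8). The groups overlapped throughout. Efna5 had a log2 fold change of -0.39 ± 0.26 (edgeR adjusted p = 0.392; 95% interval -0.93 to 0.15), which was -0.55 ± 0.38 in batch 1 and -0.22 ± 0.3 in batch 2.

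Efna1, which encodes ephrin-A1, lies on chromosome 3 at 89271733 to 89281142, minus strand. It gave 0 to 18 counts per library, 0 to 4.45 CPM in Control (median 1.45) and 0.858 to 2.95 CPM in Tyrphostin libraries (median 2.18). Its log2 fold change of 0.11 ± 0.46 (edgeR adjusted p = 0.925) had a 95% interval of -0.84 to 1.05, so a change of up to about 1 on the log2 scale in either direction stayed within the error. It was -0.41 ± 0.58 in batch 1 and 0.62 ± 0.71 in batch 2. Over all libraries the sign turned to -0.02 without Control 9 and to -0.06 without Tyrphostin 2.

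Efnb1, which encodes the transmembrane ligand ephrin-B1, lies on the X chromosome at 99136130 to 99148991, plus strand. In batch 1 the Tyrphostin libraries read 2.58, 2.32 and 9.52 CPM and the Control libraries 0.289 to 2.44 CPM (median 2.01). The highest value, in Tyrphostin 3, stood well above the rest. In batch 2 the Tyrphostin libraries read 2.32, 1.34 and 3.9 CPM and the Control libraries 1.9 to 7.82 CPM, apart from Control 7 at 0.261 CPM.

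Over all libraries the Efnb1 log2 fold change was 0.58 ± 0.51 (edgeR adjusted p = 0.543; 95% interval -0.48 to 1.63), and it ranged from 0.01 without Tyrphostin 3 to 0.91 without Control 10. Without Control 4 to 6 it was 0.21. It was 1.48 ± 0.57 in batch 1 (edgeR adjusted p = 0.137) and -0.42 ± 0.7 in batch 2 (edgeR adjusted p = 0.909). The interaction had an unadjusted p of 0.0599.

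**Figure D4:**
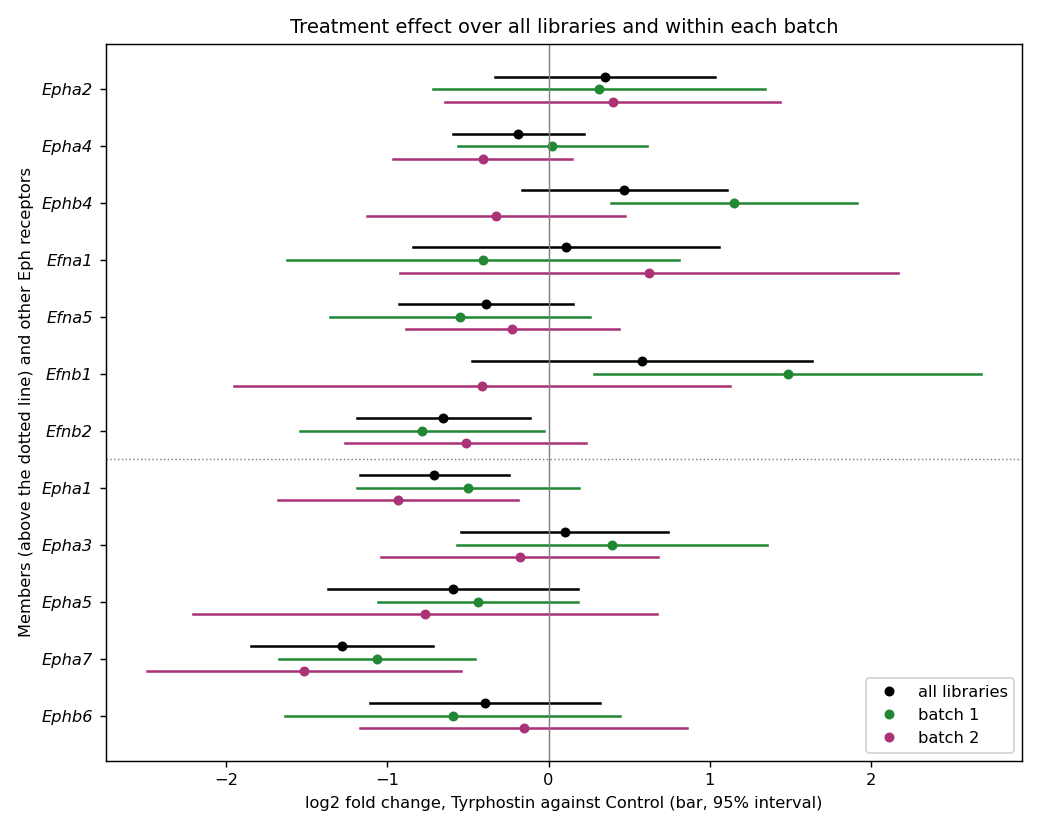
Log2 fold change of Tyrphostin against Control (horizontal axis) with 95% intervals before adjustment, for all libraries and within each batch; the 7 tested genes are above the dotted line and 5 other Eph receptors below it. Ephb4, Efnb1, Efna1, Epha4 and Epha3 lie on opposite sides of 0 in the batches, and Epha7 lies below 0 in all 3 fits.

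The batches were compared gene by gene because they share no libraries. Within batch 1, 0 of 7 genes had an adjusted p under 0.05 (edgeR), against 6.73% of all genes, and 3 of 7 (Ephb4, Efnb1 and Efnb2) had an unadjusted p under 0.05, against 21.2%. Within batch 2 the counts were 0 of 7 at both levels (edgeR), against 0.621% and 10.7% of all genes. For the interaction, 0 of 7 passed after adjustment (edgeR), where 0% of all genes did, and Ephb4 was the 1 gene under an unadjusted p of 0.05, against 3.56% of all genes.

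Ratios of a ligand to a receptor within 1 library do not depend on how libraries are scaled. The log2 ratio of Efnb2 to Ephb4 counts (0.5 added to each) was -0.74, -0.88 and -0.59 in the Tyrphostin libraries of batch 1. All of these lay below the Control libraries of the batch, which ran from -0.21 to 2.51 with a median of 1.19. In batch 2 the Tyrphostin ratios, 0.98, 1.99 and -0.16, overlapped the Control range of 0.37 to 2.34, with Tyrphostin 6 below every Control library of the batch. Ephb4 counts exceeded Efnb2 counts in the 3 Tyrphostin libraries of batch 1, in Tyrphostin 6 and, of the 11 Control libraries, in Control 6.

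The ratio of Efna5 to Epha4 did not separate the groups. In batch 1 it ran from -2.53 to -0.85 in Tyrphostin and from -2.35 to 0.18 in Control libraries, and in batch 2 from -0.78 to -0.4 and from -1.66 to -0.09. That of Efna1 to Epha2 overlapped as well, at -1.66 to -0.35 and -1.28 to 0.51 in batch 1. The ratio of Efnb1 to Ephb2 was 4.95 to 5.21 in the Tyrphostin libraries of batch 1, above the Control range of 1.08 to 4.09, and 1.67 to 3.1 against 1.58 to 5.13 in batch 2. It rests on an Ephb2 count of 5 or fewer in each library. These ratios are given as a description, with no test. The share of other gene pairs that separate within a batch was not computed.

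The Control libraries alone were also compared between batches. Of the 8 genes, only Epha4, Ephb4, Efna5 and Efnb2 passed the filter in this smaller fit, and 0 of 4 had an adjusted p under 0.05 between batches (edgeR), against 14% of all genes; 2 of 4 had an unadjusted p under 0.05, against 28.9%. Efna5 averaged 35 ± 17.3 CPM in the 6 Control libraries of batch 1 and 66 ± 21.8 CPM in the 5 of batch 2. Its log2 difference of 0.92 ± 0.32 (edgeR adjusted p = 0.0655) passed the threshold with total-count scaling (edgeR adjusted p = 0.0209) and with no filter (edgeR adjusted p = 0.00315). Epha4 had a log2 difference of 0.59 ± 0.25 (edgeR adjusted p = 0.13). Both batch differences among Control libraries were larger in size than the treatment effects on the same genes.

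Among the other Eph receptors, Epha7 passed the test under most settings and Epha1 only narrowly. Of the 14 remaining family genes, 5 were tested, and 2 of them, Epha7 and Epha1, were lower in Tyrphostin libraries, against 6.25% of all genes called lower; 0 were higher, against 4.35%. Under total-count scaling the 600 genes called lower and 418 called higher became 396 and 715. Epha7, a receptor of A-class ephrins on chromosome 4 at 28813131 to 28967499, ranged from 76.6 to 327 CPM in Control (median 182) and from 24.4 to 123 CPM in Tyrphostin libraries (median 70.2). The nearest values of the groups were 123 CPM (Tyrphostin 3) and 124 CPM (Control 1) in batch 1. In batch 2 they were 72.5 CPM (Tyrphostin 6) and 76.6 CPM (Control 9). By these narrow margins, all 3 Tyrphostin libraries of each batch lay below every Control library of that batch. Over all libraries 4 of 6 did. The share of all genes that separate in this way within a batch was not computed. The Epha7 log2 fold change was -1.28 ± 0.27 (edgeR adjusted p = 0.00314). It was -1.06 ± 0.29 in batch 1 (edgeR adjusted p = 0.032) and -1.52 ± 0.44 in batch 2 (edgeR adjusted p = 0.171). Over all libraries it was called in each of the 17 fits that left out a library. The calls within batches were less stable. In batch 1 the call was lost with total-count scaling (edgeR adjusted p = 0.0895), without Control 4 to 6 (0.175) and without Control 2, Control 5, Tyrphostin 1 or Tyrphostin 2 (0.0588 to 0.15). In batch 2 Epha7 was called with DESeq2 (adjusted p = 0.0303) and with no filter (edgeR adjusted p = 0.0342).

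Epha1, on chromosome 6 at 42358487 to 42373268, averaged 6.22 ± 1.19 CPM in the 11 Control and 3.84 ± 1.02 CPM in the 6 Tyrphostin libraries. Its log2 fold change of -0.71 ± 0.22 (edgeR adjusted p = 0.0443) lay close to the threshold. When single libraries were omitted, 4 of 17 fits still called it, and the highest adjusted p was 0.119, without Tyrphostin 6. It was called under 4 of the 14 other alternatives. Exons of Zyx on the opposite strand cover 6% of the Epha1 exons, and the strand setting of the counting is not given in the sources used here. Zyx, which encodes the actin-binding protein zyxin, was itself lower, from a mean of 343.1 to 227.8 CPM, a log2 fold change of -0.59 ± 0.18 (edgeR adjusted p = 0.0379). Its part in the Epha1 value was not tested.

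The log2 fold changes of Epha5, Ephb6 and Epha3 were -0.59 ± 0.37, -0.39 ± 0.34 and 0.1 ± 0.31 (edgeR adjusted p = 0.359, 0.54 and 0.893). Epha5 was at 3.92 CPM in Control 7, and the other Control libraries reached up to 71.3 CPM; without Control 7 its adjusted p was 0.0691 (edgeR). The 9 untested genes, Epha6, Epha8, Epha10, Ephb1, Ephb3, Efna2, Efna3, Efna4 and Efnb3, gave at most 19 counts in any library (Efna4).

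Signalling partners of Eph receptors and ephrins were read from a list of 33 genes, of which 24 were tested. Of these 2 rose and 1 fell, against 4.35% and 6.25% of all genes, and their median log2 fold change was -0.03. Ptpn13, a tyrosine phosphatase that acts on ephrin-B, rose from 31.1 ± 19.7 CPM in Control to 93.5 ± 43.6 CPM in Tyrphostin libraries, a log2 change of 1.65 ± 0.23 (edgeR adjusted p = 4.11e-05). In each batch all 3 Tyrphostin libraries exceeded every Control library of that batch, and over all libraries 3 of 6 did. The share of all genes that separate in this way within a batch was not computed.

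Itsn1, the exchange factor intersectin that works downstream of EphB receptors, rose from 12 ± 4.3 CPM in Control to 23.1 ± 6.3 CPM in Tyrphostin libraries, a log2 change of 0.96 ± 0.22 (edgeR adjusted p = 0.00501). All 6 Tyrphostin libraries exceeded the Control median. Yes1, a kinase of the Src family, fell from 632 ± 217 CPM in Control to 254 ± 55.1 CPM in Tyrphostin libraries, a log2 change of -1.32 ± 0.24 (edgeR adjusted p = 0.000808). For Yes1, 5 of 6 Tyrphostin libraries lay below every Control library. Tyrphostin 4, at 354 CPM, lay above Control 6 at 329 CPM and Control 7 at 278 CPM. The share of all genes with such a count was not computed. The remaining 21 tested partners, Src, Fyn, Nck1 and Abl1 among them, did not pass the test. Over all libraries, Ptpn13, Itsn1 and Yes1 were each called under all 14 alternatives and in the 17 fits that left out a library. Within batch 1 each was called (edgeR adjusted p = 0.0133, 0.0116 and 0.00724). Within batch 2 only Ptpn13 of these was called (edgeR adjusted p = 0.0058). There Itsn1 was 0.74 ± 0.34 (edgeR adjusted p = 0.47) and Yes1 -1.22 ± 0.38 (edgeR adjusted p = 0.204).

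**Figure D5:**
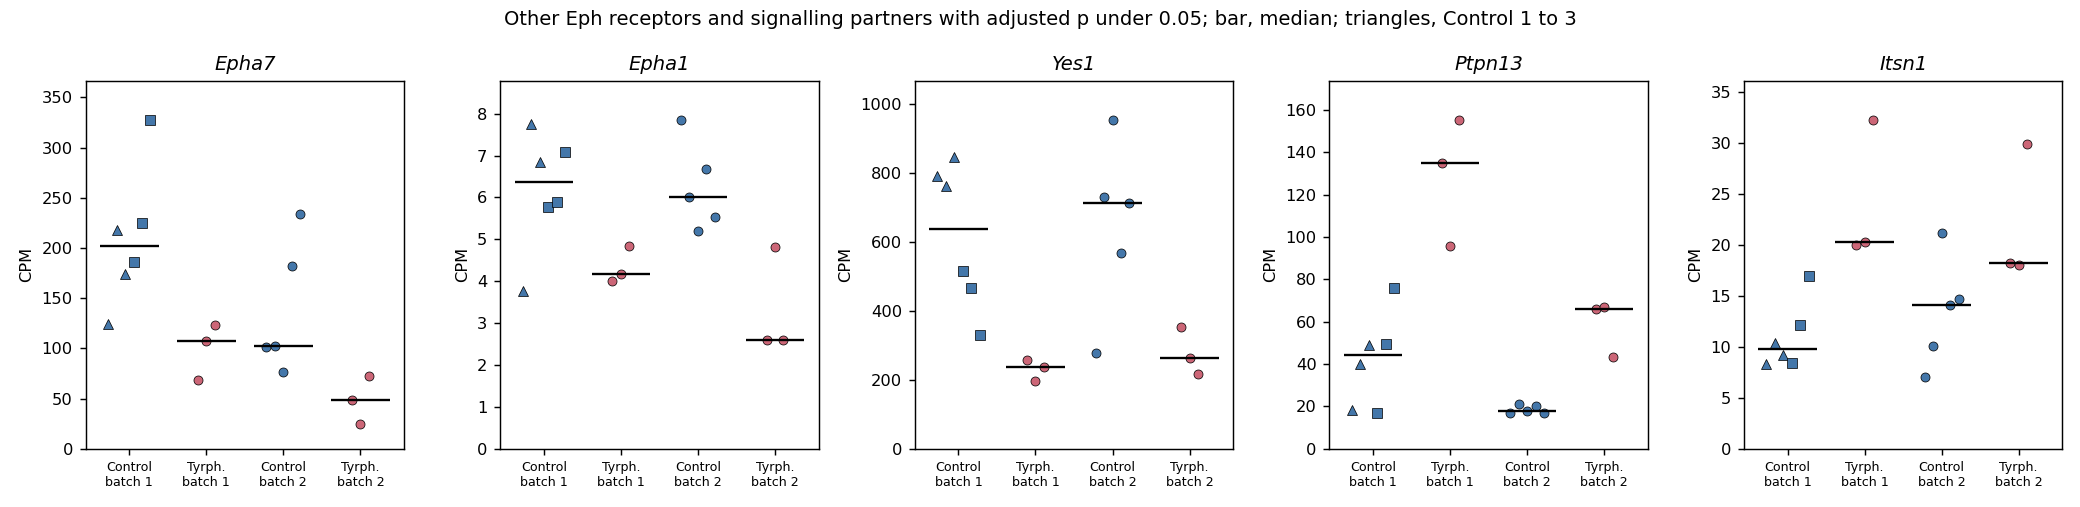
CPM (vertical axis, from 0) of Epha7, Epha1, Yes1, Ptpn13 and Itsn1 by group and batch; each point is 1 library, bars are medians, and triangles mark Control 1 to 3. The Tyrphostin libraries lie lower for the first 3 genes and higher for Ptpn13 and Itsn1.

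The genes whose pattern was most like that of Efnb2 were found among 6315 genes by the Pearson correlation of log2 CPM, centred on the batch means, over the 17 libraries. They were Med13 (r = 0.85, Spearman rho = 0.78), Gabpb1 (r = 0.84, rho = 0.7) and Zfand3 (r = 0.81, rho = 0.79). Med13, a subunit of the Mediator kinase module, was lower in Tyrphostin libraries, with a log2 fold change of -1.08 ± 0.29 (edgeR adjusted p = 0.0198), whereas Gabpb1 and Zfand3 had values of -0.2 ± 0.19 and -0.47 ± 0.21 (edgeR adjusted p = 0.576 and 0.166). The libraries share depth and treatment differences in these correlations, which are given as a description.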

How the data were processed

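The deposited table holds whole-number counts, 1 row per gene symbol, for 17 libraries; the submitters' processing notes name STAR, HTSeq and GRCm38. Versions, annotation, strand setting and filters are not given in the sources used here, so how reads from paralogs or overlapping genes were counted is unknown. Columns were matched to samples by the names in the labels, and none of the 31 pairs within a group and batch agreed within counting error (chi-square over degrees of freedom, 11.8 to 84.1).

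From these counts, edgeR 4.0.16 (R 4.3.3) was run with filterByExpr, TMM scaling, robust quasi-likelihood F tests and Benjamini-Hochberg adjustment over all genes tested. Batch was a term in the fit over all libraries; fits within each batch, of the interaction and of Control libraries by batch followed. Standard errors are the log2 fold change divided by the square root of F, and 95% intervals use the fit's degrees of freedom. CPM uses TMM-scaled library sizes and CPM per kb the union of GENCODE M21 exons (GRCm38). The code was tested on simulated data. DESeq2 1.42.0, limma 3.58.1, other scalings, filters and covariates, and omission of each library were alternatives. Exact permutation tests compared marker shares. The floor of 3 counts covers counting error only.

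The genes and lists were chosen with earlier results of these data known. All 8 genes are named whatever their change, other family genes where tested, partners where the adjusted p was under 0.05, and 3 nearest patterns for the gene of lowest p among genes with an average log2 CPM of at least 3. Leaving out Control 1 to 3 or Control 4 to 6 was chosen after seeing the data, and Zyx, the marker genes named singly and the partners named outside that rule (Crkl, Stat3, Pik3r1, Src, Fyn, Nck1 and Abl1) were chosen after their values were seen.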

Additional observations from a re-analysis of the deposited data

Results flagged for a closer look

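A library far from the rest of its group was searched for in the CPM of the 8 genes in the 6 Control libraries of batch 1, the 5 of batch 2 and the 6 Tyrphostin libraries. Of these 24 groups 3 had one, and chance gives about 1.2. Efnb1 reached 9.52 CPM in Tyrphostin 3, against 1.34 to 3.9 CPM in the other Tyrphostin libraries. Efnb2 reached 31.6 CPM in Control 9, against 13.2 to 16.5 CPM in Control 7, 8, 10 and 11. The Efnb2 log2 fold change over all libraries was -0.53 when Control 9 was left out. Ephb2 reached 1.08 CPM in Control 1, which is 4 counts, against 0 to 0.281 CPM in the other Control libraries of batch 1.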

How the results depend on the processing

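Over all libraries, none of the Eph and ephrin genes tested was called under 12 of 14 alternatives and in the 17 fits that left out a library. Efna1 fell below the filter with the replicate block and without Control 1 to 3, Control 1, Control 5 or Control 7, so 6 genes were tested there. The exceptions called 1 gene, Efnb2: without Control 4 to 6, and in the fit with the replicate block (-1.26, edgeR adjusted p = 0.0143). That block pairs Control and Tyrphostin libraries by the number in the sample titles. The correlations of same-numbered libraries were 0.31 to 0.47 for numbers 1 to 3, within batch 1. For numbers 4 to 6, which join different batches, they were -0.13 to 0.01. Among Control 1 to 6, 5 of 6 Tyrphostin libraries correlated best with their own number. The values were centred on group means and not on batch means, so libraries of the same batch share batch differences in these correlations. Control 1 to 3 also belong to 1 set. For numbers 1 to 3 the correlations therefore cannot decide whether libraries were paired. For numbers 4 to 6 a best match does not bear on pairing, because the libraries come from different batches. Not every pair was over 0.1, and the title numbers were not taken as pairs. The column names number the Control sets 1, 2, 4, 5 and 6 and the Tyrphostin libraries 1 to 6. A Control set and the Tyrphostin library of the same column number lie in the same batch. Pairing by these column numbers was not examined. The block gave 624 called genes in all against 1018, 0 other family genes against 2 (Epha7 -0.80, edgeR adjusted p = 0.0722, the 1 of 14 alternatives that did not call it), and Epha3 at -0.11.

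The 1018 genes became 619 with no batch term, 678 when the log10 library total was a covariate and 665 without Control 1 to 3, and 708 (without Tyrphostin 1) to 1314 (without Control 7) when 1 library was left out. The 2 other family genes became 1, Epha7, with upper-quartile or total-count scaling, no filter, a filter of 1 CPM in 6 libraries, no batch term, the covariate, Control libraries summed by set, or either Control set left out, and ranged from 1 to 2 with 1 library left out. Epha3 changed sign to -0.08 with the covariate, -0.15 without Control 4 to 6 and -0.01 without Tyrphostin 1 (up to 0.26 without Tyrphostin 5), and Efna1 ranged from -0.06 to 0.3 with 1 library left out.

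Within batch 1 the 0 genes called among the 7 became 1, Ephb4, with total counts (edgeR adjusted p = 0.0394), with no filter (0.00743), without Control 1 to 3 (0.045) and without Control 3, and 1, Efnb2, without Control 4 to 6. All genes called there went from 634 to 389 without Control 4 to 6, and to 394 (without Tyrphostin 2) and 687 (without Control 6). Epha4 ranged from -0.18 to 0.18 with 1 library left out and was -0.32 without Control 4 to 6, where Epha3 was -0.11. Within batch 2 the 61 genes became 222 with no filter, 303 with DESeq2, and 11 (without Tyrphostin 6) to 221 (without Control 7). There Efnb1 ranged from -0.85 to 0.18, Epha3 from -0.55 to 0.07 and Ephb6 from -0.41 to 0.13. The interaction called 79 genes with no filter against 0, where Ptpn13 was -0.08. Between batches among Control libraries, total counts and no filter each called 1 of the Eph and ephrin genes, Efna5.

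With 1 library left out, the difference in share of counts in percentage points ranged from 0.268 to 0.517 for granulosa markers (p = 0.0402 without Tyrphostin 5), -0.0195 to 0.051 for theca and stroma, -0.00736 to 0.0174 for immune, 0.000915 to 0.00582 for oocyte (p = 0.0238 without Tyrphostin 4) and 0.00014 to 0.000442 for surface epithelium markers (p = 0.0295 without Tyrphostin 4; exact permutation tests, unadjusted). The cause of these changes was not tested. Depth limits Ephb2, Efna1, Epha2 and Efnb1, which gave at most 49 counts in any library.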

Other observations

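Between batches among Control libraries, 3 of 16 tested signalling partners were called (edgeR), which is 1 higher and 2 lower, beside 14% of all genes; within batch 2, Tyrphostin against Control, 2 of 24 were called, beside 0.621% of all genes. Among Control libraries, Ptpn13 was lower in batch 2 than in batch 1, with a log2 difference of -1.11 ± 0.33 (± SE; edgeR adjusted p = 0.0338), and its treatment effect was 1.65 within each batch. The adaptor gene Crkl was also lower in batch 2 (-0.65 ± 0.21; edgeR adjusted p = 0.049) and Stat3, a transcription factor, was higher (0.90 ± 0.26; edgeR adjusted p = 0.0306). The 2 called within batch 2 were Ptpn13 and Pik3r1. Pik3r1, a regulatory subunit of PI3 kinase, was lower in Tyrphostin libraries and had a log2 fold change of -1.22 ± 0.24 (edgeR adjusted p = 0.0423); over all libraries its adjusted p was 0.0588.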
